A study of Salmo salar with 64 samples.

Results

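The 150 genes described here had lower RNA levels in the ovary of Atlantic salmon at T4, the last time point of an induced maturation, than at T1, before it began. They were chosen by a rule on deposited read counts taken as CPM, counts per M (mega) of a library's total. Of the 81574 rows of the count table, 24273 averaged over 2 CPM in the ovary, and 21891 of these also stood between 0.1 and 20 times the highest mean of the other tissues. In 1886 of these rows (8.62%) all 4 T4 libraries lay below all 4 T1 libraries, and the 150 with the largest difference in mean log2(CPM + 1) were kept, which is 0.685% of the 21891. The ovary libraries of T1 and T4 therefore chose the genes, and their difference between those time points is given as a description with no test.

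The fish were female broodstock of about 3 years, kept as 1 management group, and 4 were sampled at each time point. T1 was sampled before the days were lengthened artificially, and the later time points came after that step and 2 weeks apart from each other. RNA was sequenced from ovary, pituitary, liver and brain, giving 64 libraries in 16 groups of 4, and no genotype or other treatment distinguishes the groups. The control is a single earlier time point, so light, elapsed time and growth cannot be told apart, and the tissues of a time point come from the same fish, so they are not independent animals.

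A fish ovary at this stage consists mostly of growing oocytes, each enclosed by granulosa and theca cells and set in connective tissue with blood vessels and immune cells. Oocytes store RNA for the embryo, while the follicle cells produce steroids in response to pituitary gonadotropins and the liver supplies yolk protein. Each library is whole tissue measured as a share of all RNA, so fewer cells of a type and less RNA per cell cannot be told apart.

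Of the 150 genes, 36 carry a gene symbol, 104 carry a LOC number and 10 matched no RefSeq entry and keep their gene number. RefSeq classes 125 as protein coding, 8 as pseudogenes and 7 as lncRNA. Pseudogenes made up 5.33% of the set and 1.11% of the 21891 rows of the rule, and lncRNA 4.67% and 1.29%. The genes were of low to moderate abundance. Their mean over the 16 ovary libraries had a median of 10.2 CPM and ranged from 2.01 to 169.8 CPM, with 42 genes under 5 CPM and 5 over 100. The ovary was the tissue of highest mean for 111 genes (74.0%, against 60.1% of the rows of the rule), the brain for 24, the pituitary for 10 and the liver for 5.

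Several facts about the libraries touch these values. Ovary libraries held 18.6 to 30.6 M (mega) counts. The summed level of oocyte markers (bmp15, ddx4, figla, gdf9, nobox and zpax1) was 1829 to 2002 CPM at T1 and 1428 to 1767 CPM at T4, so the defining markers of the labelled tissue were present, and their sum was lower in all T4 libraries by 1.19-fold on average. Leukocyte markers went from 121 to 253 CPM at T1 to 480.2 to 2328 CPM at T4, and those of fibroblasts and stroma from 523 to 760.3 CPM to 1438 to 3211 CPM. Granulosa and theca markers went from 364 to 593 CPM to 776 to 1273 CPM, and endothelium markers from 26.2 to 34.5 CPM to 42.8 to 66.7 CPM. Adipocyte markers, of which 3 of 8 passed the level filter, went from 315 to 350 CPM at T1 to 242 to 288 CPM at T4, lower in all T4 libraries. Most of this sum was cidea (means 206 CPM at T1 and 173 at T4) and plin1 (120 and 88.3 CPM). The means of adipoqa, adipoqb, lepa, fabp4 and cidec were at most 0.105 CPM at each time point, so the sum does not mark adipocytes as such. The liver markers summed to 418 and 694 CPM in T4 replicates 2 and 4, against 140.2 to 155 CPM at T1. Replicates 1 and 3 of T4 held 146 and 147 CPM. Among these markers tfa averaged 51.9 CPM at T1 and 256 CPM at T4. The others stayed close to their T1 means, such as apoa1 (14.9 and 13.7 CPM), apoa2 (27.3 and 30.1 CPM) and fgg (16.4 and 18.1 CPM). None of the marker genes was among the 150, but the rule itself kept many of them out. The oocyte markers, amh and inha exceeded its upper bound on the ovary level relative to the other tissues. For example, zpax1 averaged 1136 CPM in the ovary at T1 and 2.05 CPM in the brain, its highest other tissue. Markers that were higher at T4 could not be members either. The absence of these markers is therefore no finding about the set. The pituitary hormone genes prl and pomca were read in the ovary at 0.197% and 0.192% of their pituitary level.

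The fall was modest in most of the genes. On log2(CPM + 1) the difference of the T1 and T4 means had a median of 0.68, that is 1.61-fold, and it exceeded 1 in 25 genes. It ran from 2.61 for the first gene to 0.54 for the last. The threshold cut through a dense part of the ranking, because LOC106582847, LOC106603014 and LOC106571122 inside it (0.54 each) stood beside LOC106579313, slc7a7 and mocs3 outside it (0.54 each).

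The mean log2(CPM + 1) over the 150 genes was 4.12, 3.95, 4.11 and 4.03 in the T1 libraries, 3.81, 3.69, 3.58 and 3.59 at T2, 3.41, 3.46, 3.81 and 3.86 at T3 and 3.33, 3.22, 3.35 and 3.17 at T4. The group means were 4.05 ± 0.080, 3.67 ± 0.108, 3.64 ± 0.231 and 3.27 ± 0.084 (SD, n = 4). Each T2 and T3 library lay between the lowest T1 and the highest T4 library. The spread was widest at T3, where replicates 1 and 2 were low and replicates 3 and 4 high. In the same T3 order the stromal markers summed to 1973, 3512, 1730.0 and 971 CPM and the leukocyte markers to 696, 692, 680.0 and 251 CPM. The oocyte markers summed to 1798, 1683, 1996 and 1887 CPM. The part of these cell types in the level of the 150 genes was not tested. In T4 replicates 1 and 3, with the liver marker sum in the T1 range, the mean over the genes was 3.33 and 3.35. In replicates 2 and 4, where that sum was higher, it was 3.22 and 3.17. Leukocyte markers were also higher in replicates 2 and 4 (1265 and 2328 CPM, against 480 and 564 in replicates 1 and 3). So were stromal markers (2633 and 3211 against 1438 and 1753) and granulosa and theca markers (1273 and 1200 against 776 and 939). Oocyte markers were lower (1629 and 1428 against 1767 and 1712). Which of these goes with the lower mean was not tested. The rule placed all T4 libraries below T1 in each gene. With replicates 1 and 3 as the only T4 libraries the median fall was 0.64, and the rule then kept 74 of the 150 genes.

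When each level was divided by the oocyte marker sum of its library, 130 rows of the rule (0.594%) had all T4 libraries below all T1 libraries, and 68 of the 150 genes were among them. The median ratio of the T1 mean to the T4 mean in CPM was 1.75 for the 150 genes, and it was 1.48 per oocyte marker total. For 82 genes, then, the T4 and T1 libraries overlapped on that scale. This scale leans on zpax1, the most abundant of the oocyte markers. Its mean went down from 1136 to 908 CPM between those time points. It was the only oocyte marker with all T4 libraries below all T1 libraries. The means of bmp15, ddx4, figla, gdf9 and nobox were also lower in T4, but their libraries overlapped. A scaling without zpax1 was not tested.

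**Figure D1:**
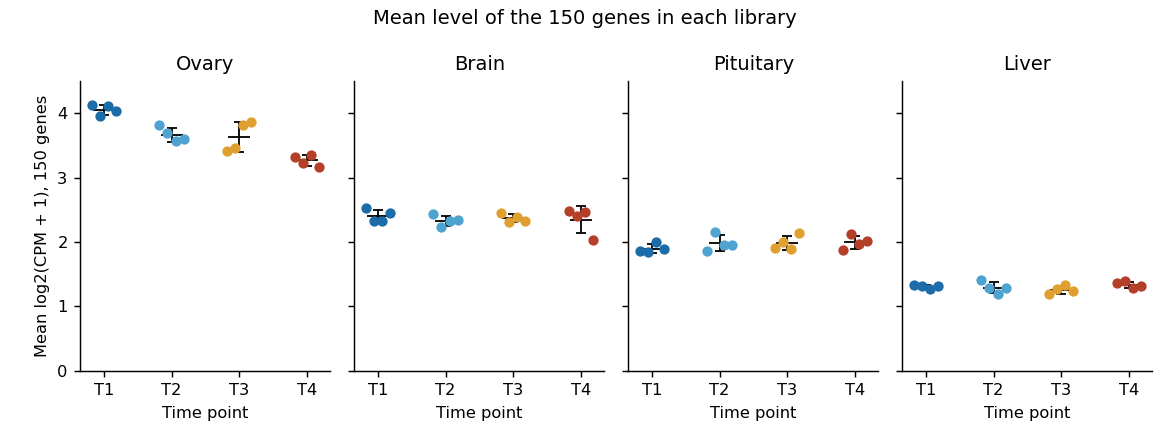
Mean log2(CPM + 1) over the 150 genes (vertical axis, starting at 0) by time point in ovary, brain, pituitary and liver, with 1 point per library and the mean ± SD of 4 libraries as a black bar. Ovary means step from 4.05 at T1 to 3.27 at T4, with T2 and T3 at 3.67 and 3.64, while the other tissues lie between 1.25 and 2.41 at each time point.

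T2 and T3 did not enter the ranking, although their difference from T1 or T4 shares libraries with it. The T2 mean was below T1 in 147 genes and above T4 in 147, and the T3 mean was below T1 in 147 and above T4 in 146. The median gene had covered 49.6% of its fall by T2 and 55.6% by T3. Genes ranked on high T1 and low T4 values tend to lie in between in libraries outside the ranking. These counts and percentages therefore do not time the fall, and the same holds for the percentages given for single genes. All T2 libraries lay below all T1 libraries in 40 genes (26.7%, against 6.76% of the rows of the rule) and above them in 0 (against 11.5%). All T3 libraries lay below T1 in 38 genes (25.3%, against 6.17%) and above in 0 (against 9.62%). These shares lean on the T1 libraries that chose the genes. Means decreased at each step in 86 genes.

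The comparison of T3 with T2 uses only ovary libraries that the rule left out of the ranking, and it asks whether the genes kept falling between those time points. None was called by edgeR's quasi-likelihood test at a Benjamini-Hochberg adjusted p under 0.05 and an absolute log2 fold change over 1, and the test called 0 of 31411 genes lower (0%) and 2 higher (0.00637%). At an unadjusted p under 0.05, 2 of the 149 genes tested were lower and 1 higher, against 989 and 1158 of all genes. DESeq2 called 0 of them in either direction, beside 15 lower and 39 higher genes in all. The T3 mean lay below the T2 mean in 93 of the 150 genes (62.0%) and in 50.8% of the rows of the rule, and the median T2 minus T3 difference on log2(CPM + 1) was 0.054 and 0.003. This direction rested on single libraries, since in the edgeR fit 90 of 149 log2 fold changes were negative (median -0.06), but 66 without T2 replicate 1 (median 0.02), 66 without T3 replicate 1 (median 0.03) and 77 without T3 replicate 2 (median -0.02), and 103 without T3 replicate 3 or 4 (medians -0.11 and -0.12). Groups that did not overlap were found in 0 of the 150 genes, against 1.7% of rows with T3 below T2 and 1.48% with T3 above. A change between T2 and T3 was thus not detectable for these genes with 4 libraries a group. The fold threshold of the call was larger than the median fall from T1 to T4, 0.68 on log2(CPM + 1). By the adjusted p of edgeR alone, 0 of the genes were called as well.

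**Figure D2:**
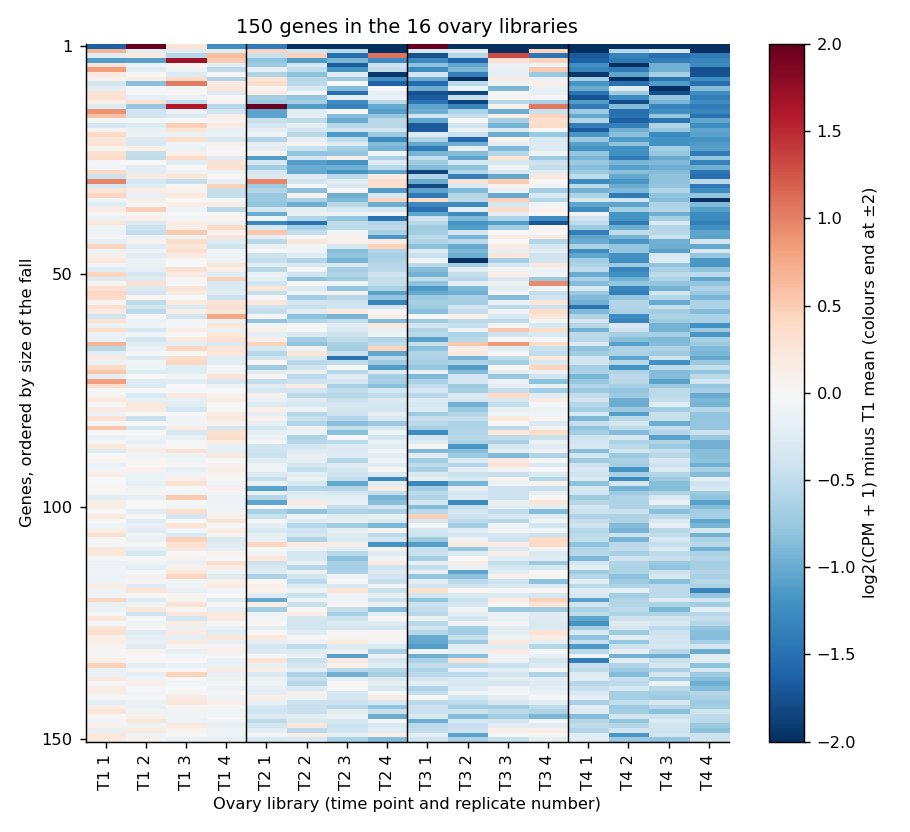
Each row is 1 of the 150 genes, ordered by the size of its fall, and each column 1 of the 16 ovary libraries (time point and replicate number). Colour gives log2(CPM + 1) minus the mean of the T1 libraries, with colours ending at ±2. T4 columns are below T1 throughout by construction of the set, and T2 and T3 columns lie between on average, with the low T3 replicates 1 and 2 beside the higher replicates 3 and 4.

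The first gene of the ranking, LOC106580571, was listed at 1.18, 40.6, 7.07 and 1.84 CPM at T1, 1.55, 0.111, 0.131 and 0.108 at T2, 36.0, 0.157, 0.275 and 0.0388 at T3 and 0.272, 0, 0.118 and 0.0419 at T4. Its fall rests on levels that varied widely within T1, and a T3 library stood nearly as high as the highest T1 library. Its T4 libraries held at most 8 counts.

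LOC106573985 stood at 30.2, 15.5, 15.6 and 15.5 CPM at T1 and 2.48, 12.1, 14.1 and 2.05 at T4, with T4 replicates 2 and 3 close under the T1 values. LOC106575220 was tighter, at 43.7, 33.1, 37.1 and 30.7 CPM at T1 and 14.8, 7.57, 17.9 and 14.3 at T4. In the first gene 2 of the T4 libraries lay far below T1, and in the second all 4 did.

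Among the named genes, robo4 had rank 3. It encodes a roundabout receptor known in mammals from the endothelium, whose summed markers were higher in all T4 libraries. Its levels were 10.2, 13.8, 7.78 and 19.2 CPM at T1, 8.59, 17.3, 3.63 and 26.7 at T2, 2.92, 7.92, 31.5 and 3.81 at T3 and 3.09, 4.19, 3.60 and 3.94 at T4. T4 was low and even, while T2 and T3 spread over both sides of T1, so that only 6.69% of the fall had occurred by T2 on the mean. The kinase gene eif2ak2, whose product responds to double-stranded RNA and blocks translation, stood at 31.2, 28.2, 22.5 and 28.2 CPM at T1 and 6.46, 12.6, 16.8 and 7.50 at T4, with means of 27.5 ± 3.62, 15.5 ± 6.91, 17.5 ± 5.94 and 10.9 ± 4.82 CPM from T1 to T4 (SD, n = 4). The T2 and T3 libraries overlapped both T1 and T4.

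A pair of genes act in arginine use. nos1, the neuronal nitric oxide synthase, stood at 30.7, 21.5, 22.8 and 25.3 CPM at T1, 15.0, 14.1, 21.3 and 22.2 at T2, 7.16, 17.6, 25.2 and 23.8 at T3 and 6.83, 9.88, 14.2 and 8.88 at T4. Outside the ovary it was read mainly in the brain, at 10.8 CPM on average. ass1, which makes the precursor of arginine, stood at 12.9, 10.1, 13.6 and 11.2 CPM at T1 and 5.24, 4.58, 9.40 and 6.41 at T4, a 1.79-fold difference on the CPM + 1 scale, and was higher in the pituitary (54.1 CPM) than in the ovary. The superoxide-producing oxidase nox1 stood at 17.5, 18.2, 18.6 and 22.6 CPM at T1 and 12.6, 15.4, 9.40 and 7.67 at T4, with a T2 mean of 18.8 CPM, still at the T1 level.

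ece2b, an endothelin-converting enzyme and one of the more abundant members, went through 144, 93.4, 104 and 101 CPM at T1, 85.8, 53.0, 47.3 and 51.8 at T2, 29.5, 72.1, 86.4 and 91.7 at T3 and 65.9, 60.4, 59.3 and 39.1 at T4. By T2 its mean had covered 93.1% of the fall, and T3 replicate 1 was below all T4 libraries. The adaptor gene stap2a stood at 57.6, 40.0, 39.6 and 39.6 CPM at T1 and 18.9, 23.9, 17.5 and 20.2 at T4, with replicate 1 the highest at T1. sytl3, a synaptotagmin-like protein that binds Rab27 on secretory vesicles, stood at 12.8, 13.6, 11.1 and 11.9 CPM at T1 and 4.83, 4.80, 7.25 and 5.28 at T4, a clear gap with little spread in either group. The endosomal syntaxin stx12 went from 5.11 ± 1.70 to 2.56 ± 0.323 CPM and the cyclase gene adcy8, whose product makes cAMP on calcium signals, from 5.36 ± 1.53 to 3.17 ± 0.711 CPM (SD, n = 4).

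gpr34b, a G protein-coupled receptor gene, stood at 7.56, 4.63, 7.35 and 4.63 CPM at T1 and 4.39, 1.78, 2.59 and 3.52 at T4, a narrow gap. LOC106568804, named a neuromedin-U receptor 1-like gene in the tables of the study, stood at 4.68, 2.79, 3.42 and 4.00 CPM at T1 and 1.19, 1.67, 1.02 and 1.13 at T4. LOC106587289, named cadherin-8-like, stood at 74.3, 49.1, 63.2 and 39.2 CPM at T1 and 35.1, 19.97, 30.8 and 31.2 at T4 and had covered 90.6% of its fall by T3. The adhesion genes LOC106602987 (neurexin-2-like) and chl1a, an L1-type molecule of nerve cells, went from 25.4 ± 3.64 to 16.8 ± 4.47 CPM and from 3.27 ± 0.537 to 1.72 ± 0.709 CPM (SD, n = 4). Summed nerve and glia markers went from 9.98 to 14.5 CPM at T1 to 6.96 to 9.87 CPM at T4, of which 2 genes passed the level filter. The largest parts at T1 were mbpa (means 4.40 CPM at T1 and 2.36 at T4) and plp1b (2.62 and 1.36 CPM). In the brain these averaged 1855 and 1136 CPM. Whether such low values come from the ovary itself was not tested. LOC106602683, butyrophilin subfamily 1 member A1-like, stood at 5.46, 5.61, 6.96 and 3.04 CPM at T1 and 2.86, 0.497, 1.21 and 1.59 at T4.

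Some abundant genes of the set had differences near the threshold. The Ran-binding gene ranbp1 went from 149 ± 19.1 to 101 ± 21.0 CPM, exosc1 of the RNA exosome from 77.2 ± 8.96 to 50.9 ± 8.26 CPM, snrnp48 of the minor spliceosome from 73.3 ± 11.9 to 47.9 ± 1.94 CPM and the THAP zinc finger gene thap4 from 108 ± 8.29 to 74.3 ± 19.8 CPM (SD, n = 4). Each of these had 1.49 to 1.51-fold higher T1 values on the CPM + 1 scale. The type 1 deiodinase gene dio1, which removes iodine from thyroid hormone, stood at 23.8, 22.3, 25.8 and 24.1 CPM at T1 and 19.5, 9.27, 14.2 and 20.9 at T4, where T4 replicates 1 and 4 came close to T1. LOC106571577, an OTX2-like homeobox gene higher in the brain, went from 3.37 ± 0.589 to 1.92 ± 0.276 CPM (SD, n = 4). LOC106578435, TRIM58-like, went from 3.49 ± 0.614 to 1.30 ± 0.386 CPM in the ovary (SD, n = 4) and averaged 19.4 CPM in the liver.

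**Figure D3:**
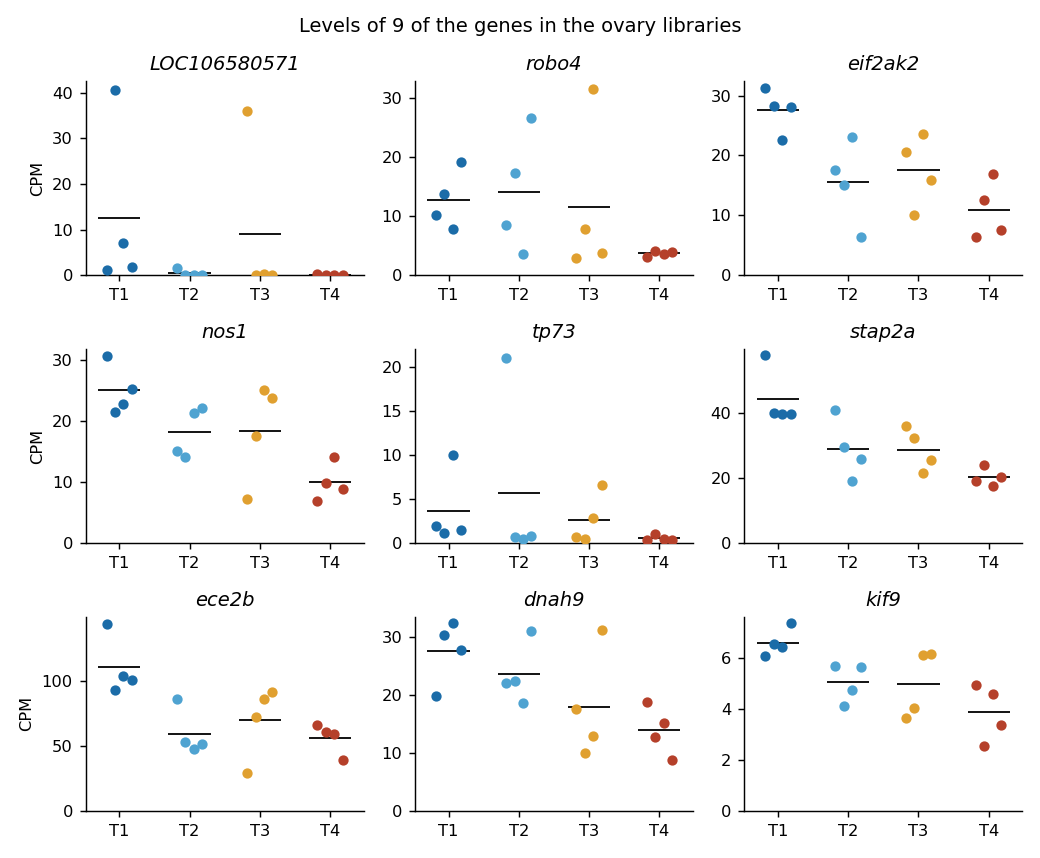
CPM (vertical axes, each starting at 0) of 9 of the genes in the ovary libraries, with 1 point per library and a line at the mean of each group of 4. All T4 points lie below all T1 points, which the rule required. Single T2 or T3 libraries of robo4 and tp73 stood above all T1 libraries. Those of other genes, such as LOC106580571, nos1 and dnah9, stood within the T1 range.

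Motile cilia, which move fluid over epithelia and drive sperm, are built on an axoneme of microtubules, dynein arms and a central pair. The list of their genes used here was drawn up after the members had been seen, and its entries were not checked for being specific to motile cilia. It holds 6 of the 150 genes, and since these prompted the list, that number is no finding. They are dnah9, an axonemal dynein heavy chain, spef1, kif9 and cfap74, which belong to the central pair apparatus, tbc1d32, a gene of cilium assembly in mammals, and tp73, a transcription factor of the p53 family that drives multiciliated cells in mammals.

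dnah9 stood at 19.9, 30.4, 32.3 and 27.8 CPM at T1, 22.1, 22.5, 18.5 and 31.0 at T2, 17.5, 9.92, 12.9 and 31.2 at T3 and 18.8, 12.8, 15.1 and 8.76 at T4, with T4 replicate 1 just under T1 replicate 1. spef1 stood at 21.4, 8.16, 10.02 and 8.10 CPM at T1 and 6.26, 3.20, 4.11 and 3.85 at T4. kif9, at 6.09, 6.55, 6.45 and 7.39 CPM at T1 and 4.96, 2.56, 4.58 and 3.39 at T4, and cfap74, at 9.06, 8.19, 7.74 and 7.61 CPM at T1 and 6.05, 5.05, 5.09 and 4.02 at T4, were less abundant and more even. tbc1d32 went from 12.9 ± 1.78 to 8.47 ± 1.18 CPM (SD, n = 4). tp73 stood at 2.00, 1.14, 10.1 and 1.45 CPM at T1, 21.1, 0.668, 0.437 and 0.808 at T2, 0.740, 0.431, 2.87 and 6.56 at T3 and 0.374, 0.995, 0.431 and 0.377 at T4, so its highest library was a T2 library and its fall rests on low levels.

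The ovary values of the list at T1 and T4 come from the libraries of the rule and are a description. The oocyte marker sum was itself 1.19-fold lower at T4 on average, and the list was not read per oocyte marker total. Of its 52 genes over 2 CPM in the ovary, 48 were rows of the rule. The 4 outside the tissue bounds, cfap46, cfap54, dnah1 and dnah12, all had a higher T4 mean, by 0.02, 0.23, 0.21 and 0.44 on log2(CPM + 1), and dnah12 had all T4 libraries above T1. Of the 48 genes, 41 had a T4 mean below T1, against 50.8% of the rows of the rule. All T4 libraries lay below all T1 libraries in 12 genes and above in 0, against 8.62% and 15.1% of those rows. The rule fixed this for the 6 members among the 12, and 6 of the other 42 genes lay below in the same way. The median difference of T4 from T1 was -0.32 on log2(CPM + 1), and -0.006 over those rows. Leaving out the 6 members, 35 of 42 were lower with a median of -0.30 and a range from -0.62 for dnajb13 to 0.40 for dnaaf9. The transcription factor gene foxj1b was among those not lower, with means of 4.10 CPM at T1 and 4.28 CPM at T4. Beyond the members, ak7b, cep41, cfap97, dnaaf10, dnal4 and odad4 had all T4 libraries below T1. Between T2 and T3, 32 of 48 had a negative log2 fold change, with a median of -0.04, and 0 were called. The mitochondrial ribosome list, which the members did not prompt, also had 48 genes among the rows of the rule. Of these, 40 had a lower T4 mean in the ovary, with a median difference of -0.15. All T4 libraries lay below T1 in 12 of them and above in 1. Lower T4 means were thus not particular to the cilia list.

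The cilia list was also read in the other tissues, whose libraries the difference in the ovary did not use. The 6 members that prompted the list were kept in these counts. In the liver 4 of its 23 genes tested were called lower (against 5.3% of all genes) and 0 higher (against 5.99%) at T4. The member tbc1d32 was 1 of the 4. The median log2 fold change there was -0.55. Several genes of the list were barely read in the liver, such as dnah9 (0.197 CPM) and foxj1b (0.098 CPM), while others were, such as dnaaf10 (5.15 CPM). In the pituitary 35 of 47 were negative with a median of -0.16 and 0 called. In the brain 45 of 48 were negative with a median of -0.49 and 0 called, in libraries whose sampled regions varied. Brain T4 replicate 4 stood over 4-fold apart from the other T4 libraries in 3027 to 5942 genes. The list was not read without that library. Medians over all genes tested were 0.06, 0.01 and -0.0004.

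**Figure D4:**
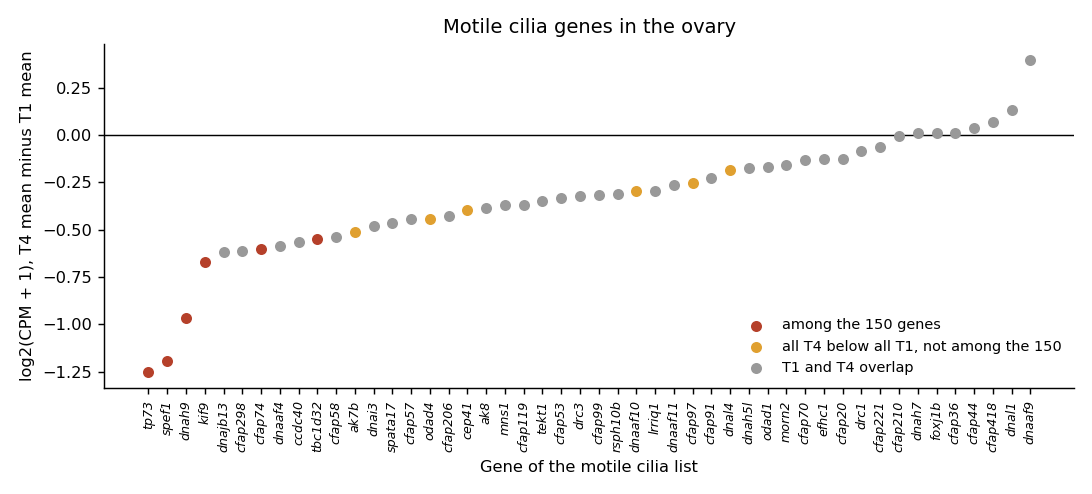
Difference of the T4 mean from the T1 mean on log2(CPM + 1) in the ovary (vertical axis) for the 48 genes of the motile cilia list among the rows of the rule, in order. Red points are the 6 genes of the set, orange points are other genes whose T4 libraries all lay below T1, and grey points are genes whose groups overlapped. 41 of the 48 points lie below 0. The 4 genes of the list outside the tissue bounds, all above 0, are not drawn.

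The set held few genes of the other lists examined. The RNA processing list had 0 of its 46 genes in the set, but its entries did not cover the members snrnp48 and exosc1. dnajc30b, a mitochondrial cochaperone, was the 1 gene of 41 chaperone genes and stx12 and sytl3 were 2 of 33 genes of synapse and secretion. Lists of the clock, cell cycle, meiosis, oxidative phosphorylation, ribosomal proteins, cholesterol and steroid synthesis, extracellular matrix, TGF-beta, BMP and Wnt signalling and ion transport contributed 0 genes. The set is 0.685% of the rows of the rule, and the longest of these lists had 126 genes there. A count of 0 is thus close to that share for each list, and only the 36 members with a symbol could match. Some of them still had genes with all T4 libraries below T1, namely 12 of 48 mitochondrial ribosome genes, 9 of 54 of oxidative phosphorylation and 16 of 126 of ion and solute transport, where the background was 8.62%. The extracellular matrix list had 0 below and 23 of 37 above.

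On CPM the mean level of the 150 genes together moved little outside the ovary. Group means of log2(CPM + 1) ran from 1.25 to 1.34 in the liver, from 1.90 to 1.99 in the pituitary and from 2.33 to 2.41 in the brain. On CPM the median of the rows of the rule had a T1 minus T4 difference of -0.17 in both liver and pituitary and of -0.02 in the brain, while in the same order the medians of the 150 genes were 0.02, -0.02 and 0.06. In the liver 16 of them (10.7%) had all T4 libraries below T1 and 16 (10.7%) above, where 8.52% and 26.4% of the rows of the rule did. In the pituitary 3 (2%) lay below and 11 (7.33%) above, against 2.63% and 16.2%, and in the brain 3 below and 0 above, against 1.21% and 2.57%. The fits that follow use TMM scaling, under which the median log2 fold change of all genes at T4 was 0.06 in the liver and 0.01 in the pituitary. For the members tested it was -0.12 in the liver, -0.19 in the pituitary and -0.15 in the brain. In the same order 60.6%, 67.2% and 66.1% of them were negative, against 46%, 49.4% and 50.1% of all genes.

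In the liver, where T4 was set against T1, 94 of the genes could be tested. The test called 9 lower (9.57%, against 5.3% of all genes tested) and 5 higher (5.32%, against 5.99%). The lower ones include LOC106605130, which stood at 43.6, 27.7, 45.6 and 36.5 CPM at T1 and 20.01, 19.4, 12.2 and 18.7 at T4 (log2 fold change -1.32, SE 0.198, edgeR adjusted p 0.0023, lower in 4 of 4). exosc1 stood at 26.1, 27.9, 28.9 and 24.5 CPM at T1 and 12.4, 11.9, 12.8 and 21.2 at T4 (-1.06, SE 0.226, edgeR adjusted p 0.00783). tbc1d32 stood at 9.88, 5.01, 6.81 and 7.13 CPM at T1 and 3.72, 4.22, 2.72 and 3.95 at T4 (-1.17, SE 0.211, edgeR adjusted p 0.00413). In all of these the groups were apart in every library.

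LOC106567883 stood at 7.07, 5.05, 5.46 and 5.11 CPM at T1 and 0.973, 1.94, 1.80 and 3.13 at T4, with a log2 fold change of -1.70 (edgeR adjusted p 0.00559). The other lower calls, LOC106583410, LOC106568756, LOC106575122, LOC106588711 and call4, were read at under 2 CPM in each T1 and T4 library, with log2 fold changes from -2.49 to -1.08. Under the fold threshold, dio1 was also lower in all T4 libraries, at 20.3, 15.6, 15.9 and 18.4 CPM at T1 and 11.8, 11.2, 10.8 and 13.1 at T4 (-0.77, edgeR adjusted p 0.00312).

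Of the genes higher in the liver, LOC106585939 stood at 11.5, 13.8, 11.3 and 13.7 CPM at T1 and 118, 76.1, 54.4 and 38.5 at T4 (log2 fold change 2.29, SE 0.284, edgeR adjusted p 0.00135) and LOC106565236 at 15.5, 18.7, 15.8 and 16.1 CPM at T1 and 45.2, 41.1, 58.9 and 43.9 at T4 (1.32, SE 0.150, edgeR adjusted p 0.00109), each higher in all T4 libraries. LOC106575789 stood at 1.74, 10.8, 1.34 and 10.9 CPM at T1 and 30.9, 33.9, 40.9 and 23.2 at T4 (2.18, edgeR adjusted p 0.0213), with a wide T1 spread. LOC106609227 was read at under 3 CPM in each T1 and T4 library. The pseudogene LOC106574630 was barely read, at 0.135 to 0.242 CPM at T1 and 0.486 to 0.744 CPM at T4. Of the genes with symbols, eif2ak2 (0.88, edgeR adjusted p 0.0255), thap4 (0.63, 0.0073), ranbp1 (0.51, 0.00403), c2cd2l (0.49, 0.0451) and robo4 (0.46, 0.046) passed the adjusted p with log2 fold changes under the threshold and were higher in all T4 liver libraries. These directions are opposite to the ovary, and the difference between the tissues was not tested.

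Liver T4 libraries were deeper than those of T1 and some were much alike. They held 32.7 to 34.9 M counts against 20.6 to 23.2 M counts at T1. Only 2 genes averaging at least 2 CPM differed over 4-fold on CPM + 1 between replicates 1 and 2, the fewest of any pair of libraries of a group. Between replicates 3 and 4 it was 25, near the 28 of pituitary T4 replicates 3 and 4, and the lowest among ovary pairs was 113. Between liver T4 libraries of different pairs it was 374 to 488. The labels call the 4 libraries biological replicates, and whether each comes from a separate fish was not tested. The edgeR p-values for the liver treat them as 4 fish. With T4 replicates 1 and 2 summed, and 3 and 4 summed, 8 of the genes were called lower and 3 higher. LOC106605130, LOC106567883, LOC106565236 and LOC106585939 kept their calls under each alternative run, while call4 lost it in 11. When 1 library was left out, exosc1 lost its call without T4 replicate 1 or 2, tbc1d32 without T1 replicate 1 and LOC106568756 without T1 replicate 2 or 3 or T4 replicate 2 or 3. With the summed pairs the calls of LOC106575789, LOC106574630 and call4 ended.

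**Figure D5:**
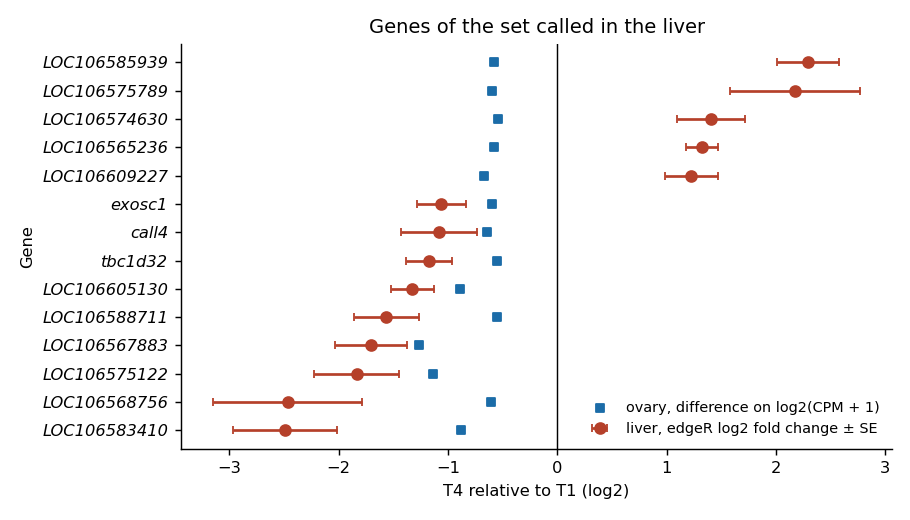
The 14 genes of the set called in the liver. Red points give the edgeR log2 fold change of T4 against T1 in the liver with its SE as a bar, and blue squares the T4 minus T1 difference on log2(CPM + 1) in the ovary, which the rule fixed as negative. In the liver 9 genes lie on the side of the ovary and 5 on the other.

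In the pituitary 119 genes were tested, with 0 called lower (0.431% of all genes tested) and 1 higher (0.84%, against 1.35%). The 1 called gene, LOC106582257, was read at 0.553 to 1.31 CPM at T1 and 1.67 to 3.36 CPM at T4 (log2 fold change 1.48, SE 0.292, edgeR adjusted p 0.0278), was higher in 4 of 4 libraries and lost its call without T1 replicate 1 or 2 or T4 replicate 2, 3 or 4. By adjusted p alone 5 were lower, namely stx12 (-0.72, edgeR adjusted p 0.022), LOC106561670 (-0.52), call4 (-0.58), LOC106576232 (-0.84) and the cilia gene spef1 (-0.42). At an unadjusted p under 0.05, 19 (16%) were lower and 10 (8.4%) higher, against 12.3% and 14.7% of all genes. In the brain 127 genes were tested and 0 were called in either direction, as for all 34267 genes (0%), with 5 lower and 0 higher at an unadjusted p under 0.05, against 879 and 857 of all genes, and DESeq2 called 0 of them beside 0.403% of the 37930 genes it tested called lower and 0.216% higher. The study left the brain out because its libraries disagreed. Up to 5942 genes differed over 4-fold between brain libraries of a group.

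Single libraries set the edge of the gap that the rule required between T1 and T4 in the ovary. The lowest T1 library was replicate 2 in 54 genes, and the highest T4 library was replicate 1 in 54 and replicate 3 in 52.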

How the data were processed

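Female Atlantic salmon tissues were sequenced as poly(A) RNA (64 libraries, 4 per tissue and time point). The authors mapped read pairs to the ICSASG_v2 assembly with TopHat2 2.1.1 and made the deposited count table with HTSeq 0.7.2, counting reads unique to exons on the reverse strand. Genes with a near-identical copy are uncertain, since shared reads were dropped, and call4 shares its gene number with another row. Their deposited log2 table of 46064 genes equalled log2(CPM + 1) within 3.7e-05 and served only limma-trend.

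Levels here are CPM of raw totals. Library totals ran from 17.5 to 51.9 M (mega) counts for brain, 20.6 to 34.9 for liver, 23.0 to 29.0 for pituitary and 18.6 to 30.6 for ovary. T3 against T2 in the ovary and T4 against T1 in the other tissues were tested with edgeR 4.0.16 in R 4.3.3 (filterByExpr, TMM, quasi-likelihood test, 8 libraries a fit, Benjamini-Hochberg adjusted p under 0.05 and absolute log2 fold change over 1). On data simulated for ovary T3 against T2 this recovered 78 of 100 genes changed by 1.5 and 100 of 100 changed by 3 on the log2 scale. There were 5 false calls among 30917 genes. Smaller changes were not simulated. The median fall of the set from T1 to T4 was 0.68 on log2(CPM + 1), so the recovery of changes of that size is not known. The SE given with an edgeR log2 fold change was derived as its absolute value divided by the square root of the F statistic.

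Alternatives were RLE scaling, DESeq2 1.42.0, limma-trend (limma 3.58.1), no low filter, a replicate block, all 16 libraries of a tissue, the adjusted p alone, leaving out single libraries, and other settings of the rule. The cilia list, the scaling by oocyte markers, T4 replicates 1 and 3 alone and the summed liver libraries were chosen after seeing the data. The 150 genes and the other lists were chosen with earlier results of these data known. Genes could be named if they were in the first 20 ranks, had a symbol or a name in the tables of the study, belonged to a list, were called or stood at the threshold. Only some of these are described singly, chosen with their values known, and the rest are in the counts or not reported here. Symbols came from RefSeq (Ssal_v3.1), which matched 140 of the 150 genes. No coordinates or sequences are given because that assembly differs from the one mapped to and no genome of it was used here.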

Additional observations from a re-analysis of the deposited data

Results flagged for a closer look

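In 144 groups of 4 ovary libraries of single genes, or of libraries of the mean over the 150 genes, 7 held a library whose gap to the others passed the limit of Dixon's test, where chance gives about 1 in 20. LOC106580571 was at 1.55 CPM in T2 replicate 1 (others 0.108 to 0.131) and at 36.0 CPM in T3 replicate 1 (others 0.0388 to 0.275). tp73 was at 21.1 CPM in T2 replicate 1 (others 0.437 to 0.808) and at 0.995 CPM in T4 replicate 2 (others 0.374 to 0.431). In T1 replicate 1, LOC106573985 was at 30.2 CPM (others 15.5 to 15.6) and stap2a at 57.6 CPM (others 39.6 to 40.0). In brain T4 replicate 4 the mean log2(CPM + 1) over the 150 genes was 2.03 (others 2.41 to 2.48). The number flagged is near that rate. 5 of the 7 concern a replicate 1 library, but those of T1, T2 and T3 come from different fish.

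Of the 150 genes, all lower in the ovary at T4, 16 had all T4 libraries above T1 in the liver and 11 in the pituitary (10.7% and 7.33%, below the 26.4% and 16.2% of the rows of the rule). Under TMM-scaled totals as well, and where edgeR could test the gene, 14 did so in the liver and 3 in the pituitary, and the difference between tissues was not tested. In the liver the log2 fold changes were 2.29 for LOC106585939, 2.18 for LOC106575789, 1.41 for LOC106574630, 1.32 for LOC106565236, 1.23 for LOC106609227, 0.91 for LOC106569833, 0.88 for eif2ak2, 0.85 for LOC106569251, 0.63 for thap4, 0.51 for ranbp1, 0.49 for c2cd2l, 0.46 for robo4, 0.29 for LOC106608687 and 0.24 for LOC106573080. In the pituitary they were 1.48 for LOC106582257, 1.07 for LOC106585939 and 0.55 for LOC106608687, and the last pair did not pass the adjusted threshold of edgeR in that tissue.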

How the results depend on the processing

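Membership depended on the rule. Of the 150 genes, 83 stayed without the tissue bounds, 45 without the demand that groups not overlap, 74 with T4 replicates 1 and 3 only, and 73 to 118 when 1 ovary library was left out (73 without T1 replicate 2). Scaling by oocyte markers left 68 with all T4 below all T1. In the pituitary, genes called higher went from 1 to 5 with DESeq2, 4 with all 16 libraries and 0 to 3 without 1 library, and 5 were lower by adjusted p alone. In the liver the adjusted p alone gave 19 lower and 12 higher, limma-trend 2 and 3, and the summed T4 libraries 8 and 3. The causes were not tested, apart from the settings that by construction drop a threshold or libraries. Leaving out 1 library gave 7 to 13 lower and 5 to 7 higher calls in the liver and 0 in ovary T3 against T2 and in the brain. Same-numbered libraries did not pair consistently. Their correlations ran from -0.06 to 0.29 in ovary T3 and T2 and, for T4 and T1, from -0.15 to 0.26 in the pituitary. In the liver they ran from -0.23 to 0.10 and in the brain from -0.70 to 0.69. The replicate block gave 0 calls in ovary T3 against T2 and in the brain. It gave 9 lower and 5 higher in the liver and 0 lower and 1 higher in the pituitary. These were as many as without it, although call4 lost its call in the liver. Cilia genes lower at T4 numbered 45 of 48 with TMM-scaled totals and 40 to 45 without 1 library. The edgeR log2 fold change of ovary T4 against T1 went from -6.82 to -4.89 for LOC106580571 without T1 replicate 2 and from -2.74 to -1.51 for tp73 without T1 replicate 3, and the rule had fixed the sign of all the genes. Depth limits genes under about 1 CPM in the liver, among them LOC106574630.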
